A study of Mus musculus with 2 samples.

Results

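Small nucleolar RNAs (snoRNAs) and small Cajal body RNAs (scaRNAs) with a numbered symbol were followed in RNA from the nuclear fraction of mouse macrophages. They were chosen by symbol alone, as genes named Snord, Snora or Scarna followed by a number and at most 1 letter. The choice held 133 of the 55536 annotated genes: 82 Snord genes (box C/D), 42 Snora genes (box H/ACA) and 9 Scarna genes. Snora16a, Snora43 and Snord80 each stood for 2 gene identifiers, so the 133 genes carried 130 symbols. The annotation types 125 of them as snoRNA, 7 as scaRNA and 1, Snord43, as miRNA. A further 1426 genes of the snoRNA and scaRNA types carry other names and were used for comparison only.

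The cells were macrophages grown from bone marrow of C57BL/6J mice and given Lipid A, the part of bacterial lipopolysaccharide that Toll-like receptor 4 recognises, at 100 ng/ml for 10 min. Ribosomal RNA was depleted and total RNA was sequenced from a fraction that one label field calls nucleoplasmic and another calls nucleus. The series holds 2 libraries of this 1 group, biological replicates 1 and 2, with no untreated sample, so the values are levels and no response to Lipid A can be read from them. Both biosamples carry the same donor identifier, sex and age were not collected, and nothing states that the cultures came from separate animals, so differences between replicates can include technical ones. Replicate 1 was made from 1 µg of RNA and replicate 2 from 500 ng, and the library size range is given as 250 to 400 for both, with no unit named. The gene tables held 19153465 and 11622346 expected counts in replicates 1 and 2. In these tables all 7 macrophage markers reached 1 TPM (a length-scaled share of all transcripts) in both libraries, and 1 of 17 markers of other marrow cells did (S100a8). In the second quantification described below, all 7 did as well. There 1 of the 17 did, the T cell marker Cd3d, at 2.53 and 10.1 TPM in replicates 1 and 2.

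Box C/D snoRNAs guide the methylation of ribose in ribosomal RNA, and box H/ACA snoRNAs guide the change of uridine to pseudouridine. Each class is bound by its own set of core proteins, with fibrillarin as the methylase of the first and dyskerin as the pseudouridine synthase of the second. The scaRNAs carry the same boxes and guide the same changes on spliceosomal small nuclear RNAs in Cajal bodies. Most of these RNAs are cut out of introns of host genes, and a few, such as U3, U8 and U13, have promoters of their own.

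The RNAs themselves are short, and the boxes that name the classes can be read from them. The set below shows 4 box C/D members: Snord17 had the most counts of the class, Snord22 differed most between the libraries, Snord104 was read only by the second of the 2 quantifications described below, and Snord118 is U8, an RNA needed for the maturation of the large ribosomal subunit RNAs. Capitals mark TGATGA (box C) where it is present and CTGA (box D) near the 3′ end. Snord17 lies at chr2:144265979-144266216, minus strand, in an intron of Snx5, and Snord104 at chr11:106500993-106501062, plus strand, with no host. Snord118 lies at chr11:69073427-69073561, plus strand, with no host, and its TGATGA starts at base 53. Snord22 lies at chr19:8725866-8725991, plus strand, in an exon of a transcript of Snhg1, and holds no TGATGA. All coordinates are of mm10, and the sequences are the transcripts of the GENCODE annotation M21, printed 5′ to 3′.
Snord17: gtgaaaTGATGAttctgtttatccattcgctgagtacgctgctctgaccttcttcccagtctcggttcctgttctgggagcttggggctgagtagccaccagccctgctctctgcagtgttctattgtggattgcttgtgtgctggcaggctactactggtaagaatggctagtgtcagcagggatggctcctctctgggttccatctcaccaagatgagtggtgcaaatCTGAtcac
Snord104: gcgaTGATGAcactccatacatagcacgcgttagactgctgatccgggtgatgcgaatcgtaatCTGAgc
Snord118: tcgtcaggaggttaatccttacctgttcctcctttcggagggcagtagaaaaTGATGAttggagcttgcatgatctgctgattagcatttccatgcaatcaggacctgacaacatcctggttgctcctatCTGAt
Snord22: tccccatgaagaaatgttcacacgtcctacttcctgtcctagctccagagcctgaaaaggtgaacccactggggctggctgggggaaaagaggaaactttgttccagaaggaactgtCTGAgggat

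The next set shows 2 H/ACA members, with the ACA near the 3′ end in capitals, and 1 scaRNA that carries boxes C and D, again in capitals. Snora31 (chr14:75847905-75848034, plus strand, in an intron of Tpt1) had the most estimated counts of the H/ACA members whose sequence occurs at no other locus and that lie in an intron. Scarna13 (chr12:105031075-105031349, minus strand, in an intron of Snhg10) is the scaRNA U93, built of H/ACA domains. Scarna6 (chr1:87784556-87784820, plus strand, in an intron of Atg16l1) is shown as the member with boxes C and D; Scarna10 and Scarna2, which had more counts, are longer and are not printed.
Snora31: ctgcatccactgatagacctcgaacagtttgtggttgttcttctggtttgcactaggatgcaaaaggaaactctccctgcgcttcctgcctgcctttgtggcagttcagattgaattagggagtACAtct
Scarna13: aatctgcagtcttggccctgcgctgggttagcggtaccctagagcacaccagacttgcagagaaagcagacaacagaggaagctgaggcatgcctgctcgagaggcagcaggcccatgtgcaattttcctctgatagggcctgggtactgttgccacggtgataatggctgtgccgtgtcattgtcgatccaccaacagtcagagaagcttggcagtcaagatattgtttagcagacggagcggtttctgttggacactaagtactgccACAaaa
Scarna6: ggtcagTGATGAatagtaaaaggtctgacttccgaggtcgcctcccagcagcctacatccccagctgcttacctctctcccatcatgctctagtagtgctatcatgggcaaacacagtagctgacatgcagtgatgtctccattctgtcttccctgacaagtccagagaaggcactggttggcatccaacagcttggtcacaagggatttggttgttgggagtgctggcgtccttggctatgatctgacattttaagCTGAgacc

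The boxes followed the names. TGATGA within the first 20 bases was found in 53 of 82 Snord members (64.6%), in 0 of 42 Snora members and in 4 of 9 Scarna members (Scarna6, Scarna9, Scarna10 and Scarna17). CTGA within the last 15 bases was found in 75 of 82 Snord members (91.5%), 3 Snora members and 5 Scarna members, the 4 above and Scarna2. Both motifs together occurred in 51 Snord members (62.2%). ACA within the last 8 bases was found in 40 of 42 Snora members (95.2%), 7 Snord members and 4 Scarna members (Scarna3a, Scarna3b, Scarna8 and Scarna13). For comparison, 18942 other transcripts of 64 to 414 nt were taken, the range of the members, without matching of lengths within it. Among them, TGATGA stood in the first 20 bases of 0.729%, CTGA in the last 15 bases of 7.77% and ACA in the last 8 bases of 9.97%. The motifs were searched on the transcript strand only. The looser H box, ANANNA, was in 40 of 42 Snora members, 5 of 82 Snord members and 7 of 9 Scarna members, and in 81.7% of the other transcripts. It was searched only in the inner part of a transcript, 40 bases from either end, so short transcripts could not score. Most Snord members, with a median of 78.5 nt, and Scarna9 and Scarna17, of 70 and 79 nt, were too short. The classes therefore cannot be compared on the H box.

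Each library was quantified by the authors in 2 ways, which treat RNAs of this length differently. One gives expected counts and TPM per gene and is called the gene tables; the other gives estimated counts and TPM per transcript and is called the second quantification. TPM divides a count by an effective length, the number of places where a fragment of the library could start within the transcript. In the gene tables the effective length was 0 for 88 of the 133 members in replicate 1 (66.2%, against 9.03% of all genes) and for 83 in replicate 2. These were 78 Snord, 8 Snora and 2 Scarna members in replicate 1. In replicate 1 the longest member with an effective length of 0 was 129 nt and the shortest with one above 0 was 130 nt, and in replicate 2 the lengths were 127 and 128 nt. The second quantification gave every member an effective length above 0, from 14 to 241 nt.

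**Figure D1:**
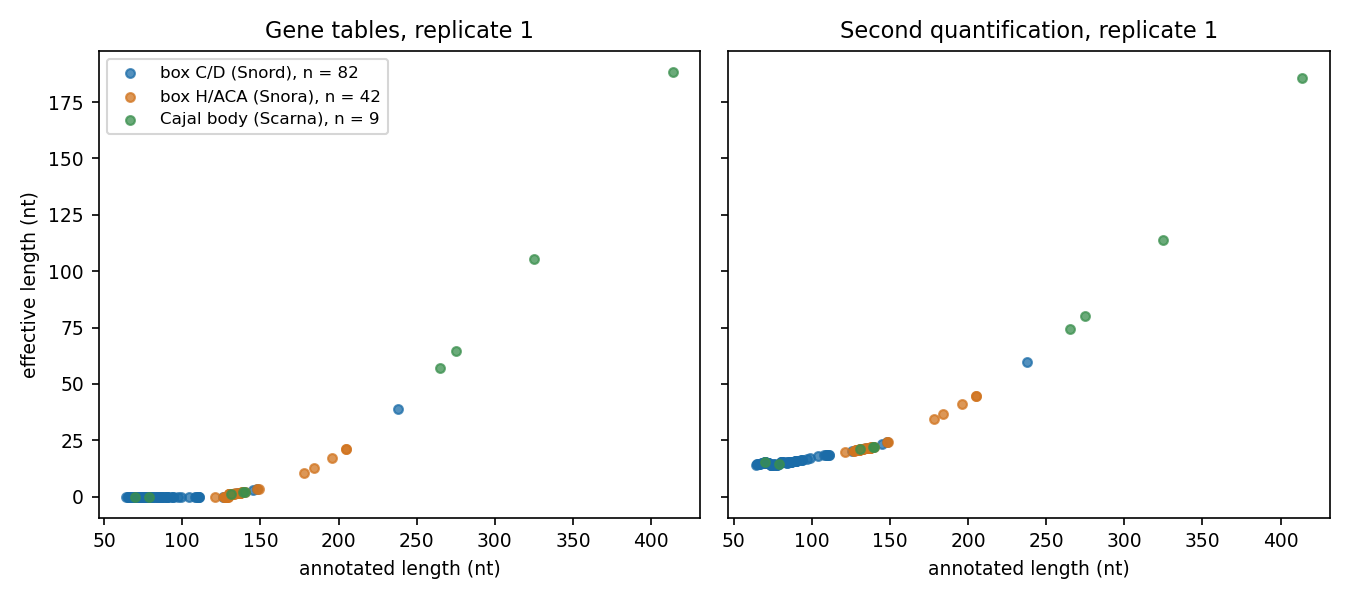
Effective length (nt) against annotated length (nt) of the 133 members in replicate 1, with 1 point per gene coloured by class; the left panel shows the gene tables and the right panel the second quantification. On the left 88 members lie at 0, while on the right none does.

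The classes differ in length and in the number of members detected. The median annotated length was 78.5 nt for Snord, 132.5 nt for Snora and 140 nt for Scarna members. With detection set at 1 TPM in both libraries, the gene tables detected 13 of the 133 members, a share of 9.77%, against 23.6% of all genes. These were 3 of 82 Snord members (Snord15a, Snord15b and Snord17), 6 of 42 Snora members (Snora23, Snora34, Snora73a, Snora73b, Snora74a and Snora81) and 4 of 9 Scarna members (Scarna2, Scarna6, Scarna10 and Scarna13). The second quantification detected 73 members, a share of 54.9% against 30.8% of all genes: 41 Snord, 24 Snora and 8 Scarna. At an effective length near that of most members, 1 estimated count can pass 1 TPM, and 20 of the 73 rested on 3 or fewer counts in a library; Snord82 passed on 1 count in each. At least 10 counts in both libraries were reached by 11 members in the gene tables (8.27%, against 26.2% of all genes) and by 45 in the second quantification (33.8%, against 41.9% of all genes). By counts the members' share thus lay below that of all genes in both quantifications. Of the other genes of the snoRNA and scaRNA types, the gene tables detected 34 of 1426 (2.38%) and the second quantification 272 (19.1%).

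A large part of the named members was visible to the second quantification alone. Of the 133, 51 had 0 expected counts in both libraries and 1 TPM or more in both by the second quantification (37 Snord, 11 Snora and 3 Scarna); over all genes that share was 4.98%. The 72 members under 100 nt had 0 expected counts together and 914 estimated counts. Over the 10 members of 150 nt or more, all detected by both, expected counts came to 78.0% of the estimated counts. They came to 23.4% for the 40 members of 128 to 149 nt and to 34.3% for the 11 members of 100 to 127 nt, most of it Snord22. Over all genes the gene tables also held fewer counts than the second quantification. The totals were 19153465 against 26079323 in replicate 1 and 11622346 against 20703247 in replicate 2.

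The scaRNAs carried most of the reads. Scarna10 is the scaRNA U85, which guides both kinds of change on the U5 spliceosomal RNA. It lies within Ncapd2 and partly overlaps an exon of this host. Scarna10 had 5247 and 2022 expected counts in replicates 1 and 2 and 5429 and 3330 estimated counts. Scarna2, the guide of methylations on the U2 spliceosomal RNA, had 3221 and 1756 expected counts and 3654 and 2709 estimated counts. Together these 2 genes held 75.4 ± 2.76% (SD, n = 2) of the members' expected counts and 65.4 ± 2.24% of their estimated counts. The 9 Scarna members held 87.2 ± 5.68% of the expected counts, the Snora members 7.14 ± 4.92% and the Snord members 5.62 ± 0.752%. Scarna10 and Scarna2 were the highest members in both libraries by either count.

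Per unit of length the order was closer. By TPM of the second quantification the Snord members held 37.2 ± 0.758% of the members' level, the Scarna members 39.7 ± 1.11% and the Snora members 23.0 ± 1.87%. All members together made 0.350% and 0.324% of TPM in replicates 1 and 2 by the second quantification. In the gene tables they made 1.11% and 0.490% of TPM, and 0.0602% and 0.0420% of expected counts. The share of TPM in the gene tables was thus more than 2-fold apart between the libraries, where the other measures differed less. As parts of a library's total, these shares measure neither the number of cells nor the RNA per cell, which bulk samples cannot tell apart.

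**Figure D2:**
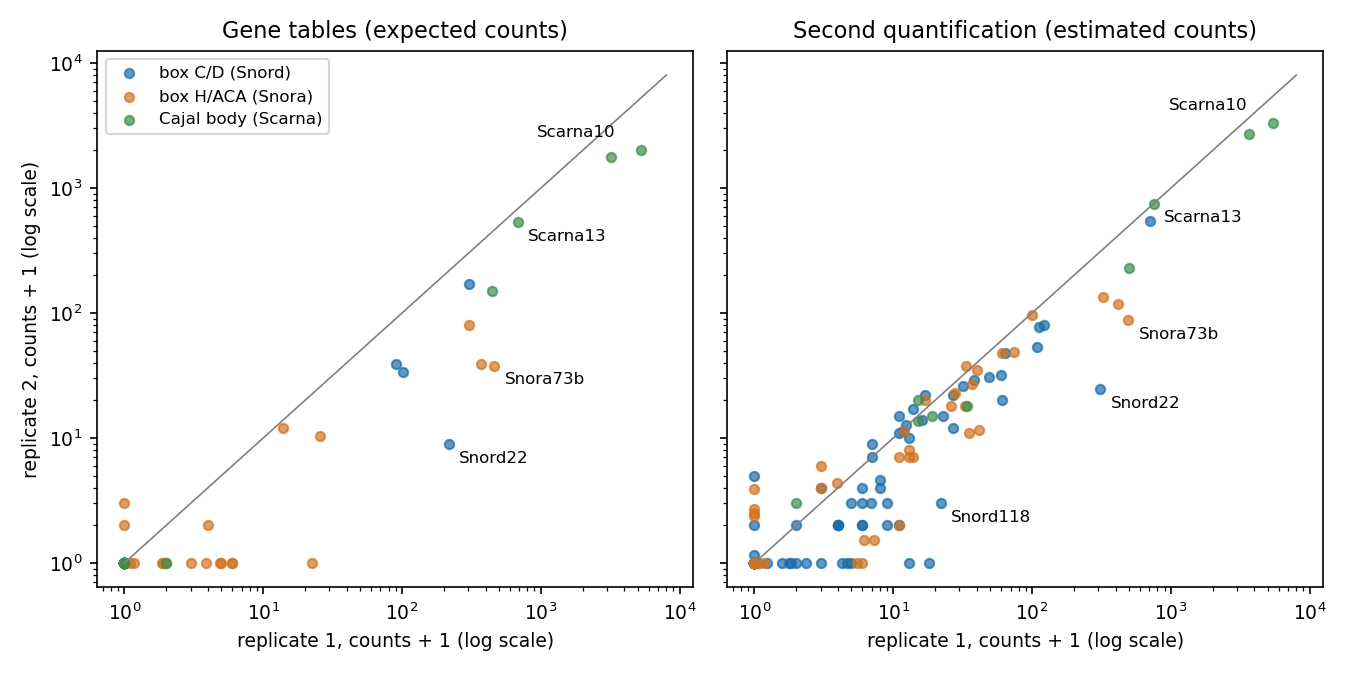
Counts + 1 of the 133 members in replicate 1 (x axis, log scale) and replicate 2 (y axis, log scale), with 1 point per gene coloured by class; expected counts of the gene tables are on the left, estimated counts of the second quantification on the right, and the grey line marks equal unscaled counts. Scarna10 is the highest point in both panels, and Snord22 and Snora73b lie below the line.

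Among the scaRNAs, 4 long members were read alike by both quantifications in rank but not in level. Scarna10 stood at 2211 and 1205 TPM in the gene tables (1708 ± 711, SD, n = 2) and at 739 and 623 TPM in the second quantification (681 ± 82.2). The authors' deposited interval for its TPM ran from 2045 to 2160 in replicate 1 and from 1066 to 1163 in replicate 2. It held the posterior mean TPM, a further deposited estimate, at 2100 and 1113, and left out the TPM given above in both. Scarna2 stood at 760 and 602 TPM in the gene tables and at 306 and 332 TPM in the second quantification. Replicate 1 was higher for both genes in the gene tables, and for Scarna10 alone in the second quantification. Scarna13 stood at 469 and 509 TPM (489 ± 28.6) against 145 and 194 TPM in the second quantification, higher in replicate 2 in both. Scarna6, a guide with boxes C and D, stood at 349 and 160 TPM against 104 and 63.4 TPM in the second quantification. In the second quantification, the level of Scarna6 in replicate 1 was below that of Scarna13 in either library.

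The short scaRNAs were near or at 0 in the gene tables. Scarna9, annotated here with 70 nt, had 0 expected counts and 14 and 19 estimated counts, 14.3 and 35.5 TPM. Scarna17 had 0 expected counts and 18 and 14 estimated counts, 19.1 and 25.6 TPM, and 81.6% of its 31-base words occur at another locus. Scarna3b had 0 expected counts and 33 and 17 estimated counts, 23.3 and 20.8 TPM. Of its 31-base words, 87.2% also occur in another gene at its locus. These 3 genes thus had counts in both libraries by the second quantification alone. Whether those reads came from the scaRNAs themselves was not tested. Scarna3a had 1 expected count, in replicate 1, and 14 and 12.7 estimated counts. Scarna8 was the lowest scaRNA, with 1 and 2 estimated counts (0.735 and 2.81 TPM), and the 1 scaRNA that was not detected.

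The highest box C/D members were long for their class or sat just above the point where the effective length ends. Snord17, a guide RNA of 238 nt, had 304 and 170 expected counts, 348 and 267 TPM, and 182 and 190 TPM in the second quantification (186 ± 5.70). Snord15a, of 148 nt and in an intron of Rps3, had 89 and 38 expected counts, which the gene tables turned into 1212 and 694 TPM; the second quantification gave 78.1 and 82.9 TPM. Snord15b, of 145 nt and in an exon of a Rps3 transcript, had 100.5 and 32.7 expected counts and 1599 and 697 TPM, against 71.5 and 57.7 TPM in the second quantification. The effective length of Snord15b in the gene tables was 2.8 and 3.24 nt. Snord15a and Snord15b thus ranked above Snord17 by TPM in the gene tables and below it in expected counts and in the second quantification.

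Snord22, known as U22 and needed for the small ribosomal subunit RNA, was the clearest case of counts without a level. Its expected counts were 216 in replicate 1 and 7.92 in replicate 2, its effective length of 0 gave it 0 TPM in both, and the second quantification gave 236 and 35.5 TPM. Snora26, Snora28 and Snora78 were likewise counted in the gene tables and listed at 0 TPM.

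Other box C/D members were high by the second quantification with 0 expected counts. Snord43 stood at 93.8 and 143 TPM on 111 and 77 estimated counts, and lies in an intron of Rpl3. Snord71 stood at 63.1 and 85.3 TPM on 63 and 47 counts, in an intron of Ap1g1. Snord104 stood at 60.2 and 58.0 TPM on 59 and 31 counts. All 3 were above every other Snord member but Snord17, Snord22, Snord15a and Snord15b in summed estimated counts. Snord118 had 21 and 2 estimated counts, and Snord13, known as U13 and needed for acetylation of the small subunit RNA, had 5 and 2. Among members known mainly from brain, Snord64 had 0 counts by both quantifications in both libraries, which allows up to 3 counts per library.

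Among box H/ACA members, 3 genes led by counts. Snora73b had 461 and 37.0 expected counts and 493 and 86.4 estimated counts, and Snora73a 373 and 38.0 expected and 412 and 117 estimated counts. Both are copies of U17, an H/ACA RNA needed for cutting of the ribosomal RNA precursor. Both lie within Snhg3, where Snora73a partly overlaps an exon. Snora74a, known as U19, had 302 and 79.3 expected counts and 325 and 134 estimated counts. All 3 were higher in replicate 1. In the second quantification they stood at 171 and 41.6 TPM (Snora73b), 143 and 56.6 TPM (Snora73a) and 123 and 71.7 TPM (Snora74a).

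The Snora members of 130 nt or so show what a single count was worth in the gene tables. Snora31 had 0 and 2 expected counts, and the 2 counts in replicate 2 gave 113 TPM; the second quantification placed it at 73.8 and 136 TPM on 99 and 95 counts. Snora68 had 21.6 and 0 expected counts, listed as 834 and 0 TPM, against 30.0 and 14.7 TPM in the second quantification. Snora61 had 3.87 and 0 expected counts, listed as 161 and 0 TPM, against 3.38 and 0 TPM. For Scarna10, by contrast, 1 expected count was worth 0.421 TPM in replicate 1 and 0.596 TPM in replicate 2. Snora30, in an intron of Srcap, had 0 expected counts and stood at 54.4 and 68.5 TPM in the second quantification.

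Averaged over both libraries, 89 members reached 1 TPM in one quantification or the other, and 84 of them were more than 2-fold apart on the log2(TPM + 1) scale, against 29.5% of all genes tested. Of these, 19 were higher in the gene tables (2.08% of all genes tested were) and 65 in the second quantification (27.4% of all genes). The differences, in log2 and gene tables minus second quantification, were largest upward for Snora61 (4.92), Snora68 (4.16), Snord15b (4.13), Snora5c (3.84) and Snord15a (3.55). They were largest downward for Snord22 (-7.09), Snord43 (-6.90), Snord71 (-6.23), Snora30 (-5.97) and Snord104 (-5.91).

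**Figure D3:**
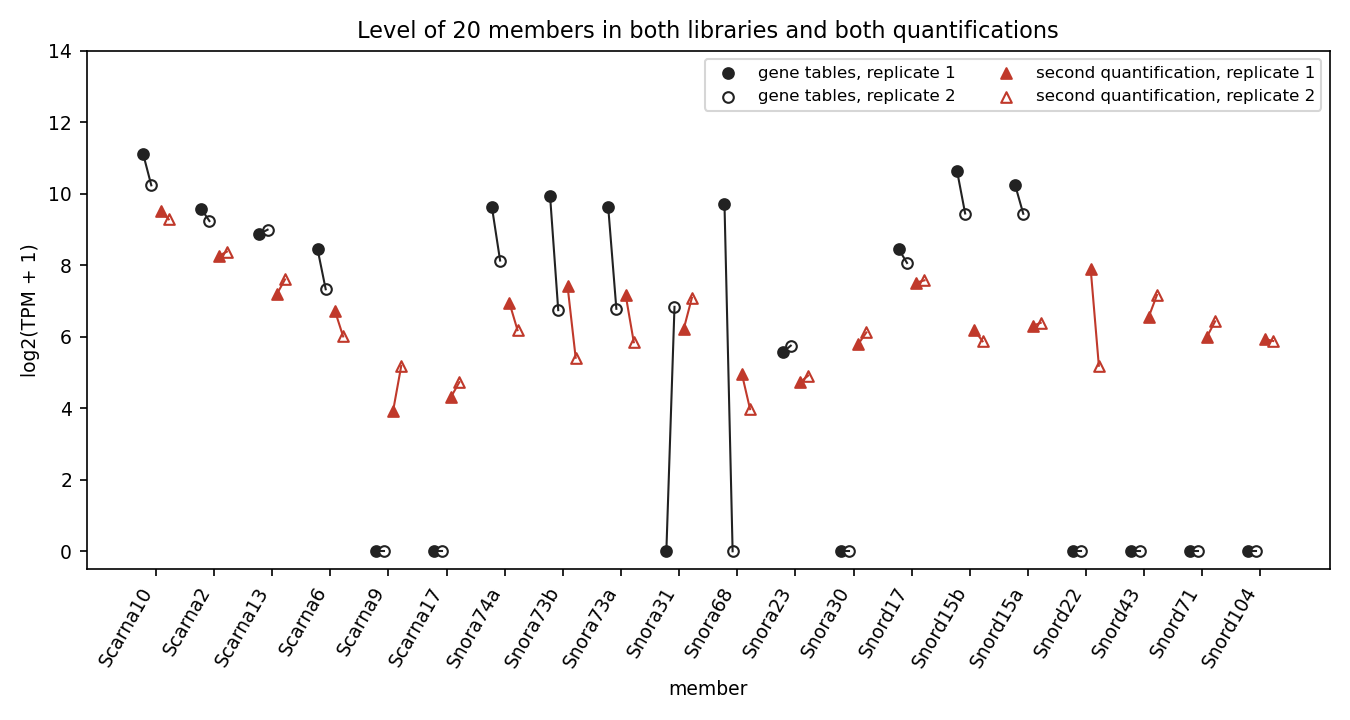
Level of 20 members as log2(TPM + 1) in the gene tables (black circles) and the second quantification (red triangles); filled symbols are replicate 1, open symbols replicate 2, and a line joins the libraries. Scarna9, Scarna17, Snora30, Snord22, Snord43, Snord71 and Snord104 lie at 0 in the gene tables in both libraries, and Snora31 and Snora68 lie at 0 in 1 library.

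Where a member sits in its host gene went with whether it was detected. Of the 133 members, 124 lie within a host gene on the same strand, and 9 have no host. Of the 124, 56 lie wholly inside an exon of some host transcript, 41 of these in a transcript typed as retained intron. The other 68 are counted as intronic. Members counted as intronic, or as outside host exons, can still overlap a host exon in part, as Scarna10, Snora2b, Snora5c, Snora15 and Snora73a do. The second quantification detected 7 of the 56 members in a host exon (Snord15b, Snord21, Snord22, Snora44, Snora68, Snora74a and Snora81) and 66 of the 77 others. The median level was 0 TPM in both libraries for the former and 10.02 and 15.04 TPM for the latter. Within Snord the counts were 3 of 37 against 38 of 45, and within Snora 4 of 19 against 20 of 23. None of the 9 Scarna members lies wholly inside a host exon. Among members under 128 nt they were 2 of 38 against 37 of 45. With at least 10 estimated counts in both libraries in place of 1 TPM they were 6 of 56 against 39 of 77, over all classes and lengths.

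All 31-base words of each of the 56 members in a host exon also occur in another gene at the same locus, which was true of 0 of the 68 members in an intron and of 1 of the 9 without a host. Reads of such a member and of its host transcript cannot be told apart by sequence within the member. How the authors' programs divided them was not tested. The words were compared with annotated transcripts, in which introns are spliced out. Whether reads of an intronic member came from unspliced host RNA was therefore not tested. Members counted as intronic can share part of their words with a gene at the locus, 85.8% for Scarna10 and 73.7% for Snora73a. Of the 36 members that share words with another locus, 17 were detected, and of the 97 that do not, 56 were. Of those 97, 46 share words with a gene at their own locus (13 detected). The other 51 share none with an annotated transcript of any other gene (43 detected).

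**Figure D4:**
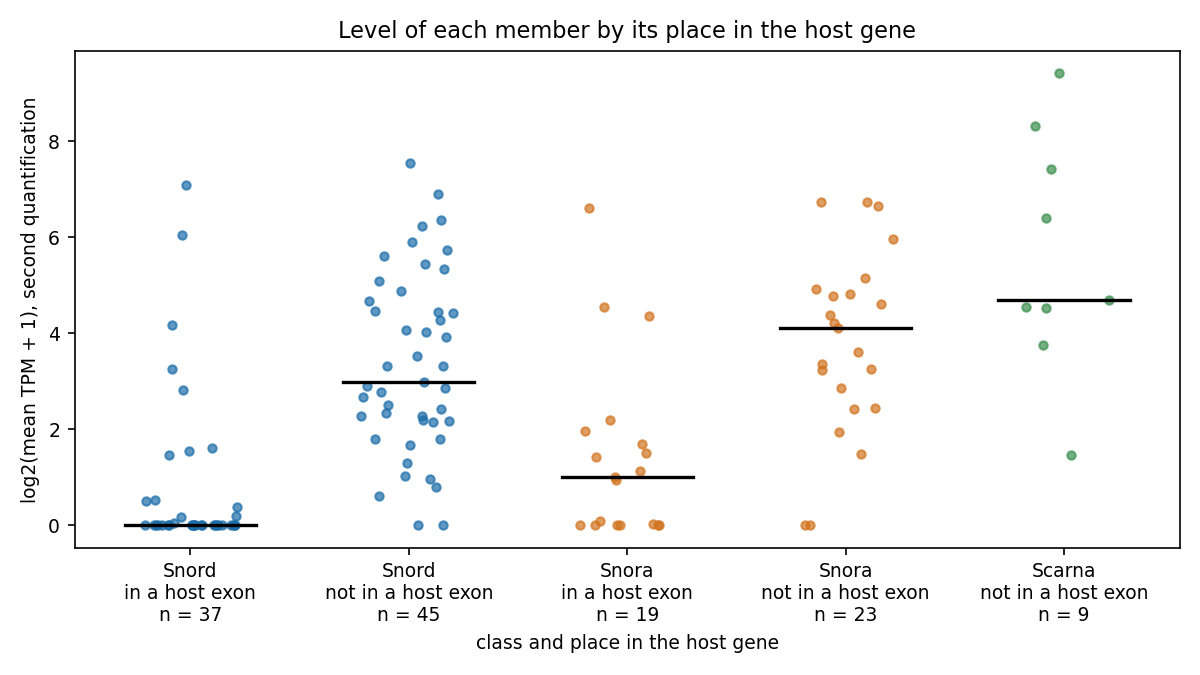
Mean level over both libraries in the second quantification, as log2(mean TPM + 1), for each member (points, coloured by class), split by class and by whether the member lies inside an exon of a host transcript; black bars are medians. The median of the 37 Snord members in a host exon lies at 0, and those of the groups outside host exons lie higher.

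Few counts stood behind the members of the hosts with the most members. Snhg12, a noncoding host at 11.7 and 8.65 TPM in the gene tables, holds 5 members, all in exons: both Snora16a genes, Snora44, Snora61 and Snord99, of which Snora44 was detected at 2.21 and 4.91 TPM. Gas5, at 82.3 and 85.1 TPM, holds Snord47, Snord78 and both Snord80 genes, all in exons, and none was detected; Snord47 had 3.25 estimated counts in replicate 1 and the other 3 had 0. Rpl13a, a ribosomal protein gene at 91.2 and 49.4 TPM, holds Snord32a, Snord34 and Snord35a in introns, and Snord33 in an exon. Snord32a had 5 and 1 estimated counts and Snord34 and Snord35a had 3 and 1 each, which passed 1 TPM, while Snord33 had 0.850 and 0; at these counts the members of Rpl13a cannot be told apart. The members of the 2 noncoding hosts and Snord33 lie in exons, and 1 of those 10 was detected.

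Levels of hosts and of their intronic members were set side by side. Over the 68 intronic members, Spearman's rho between host and member level was 0.04 and Pearson's r 0.14 on the log2 scale, given as a description, since members share hosts and libraries. The 124 members lie in 89 hosts, 67 of them protein-coding and 24 of them ribosomal protein genes. Scarna13 was high in Snhg10, which stood at 2.37 and 0.880 TPM. At the other end, Htr2c, the serotonin receptor gene that holds Snora35, and Gm38393, which holds Snord64 and Snord107, were listed at 0 TPM in the gene tables, as were their members. A member of effective length 0, such as Snord107, could only be listed at 0 TPM there. In the second quantification Snora35, Snord64 and Snord107 had 0 estimated counts in both libraries. Htr2c had 0 and 1 there, and Gm38393 had 28.5 and 28.9. Intronic members of ribosomal protein hosts were detected in 13 of 16 cases, those of other coding hosts in 33 of 39 and those of noncoding hosts in 12 of 13.

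Between the libraries, the members that were far apart were all higher in replicate 1. On counts scaled by TMM, 13 members had a mean of at least 10 in the gene tables, of which 4 were more than 2-fold apart (5.12% of all genes tested were), with 4 higher in replicate 1 (3.18% of all genes tested were) and 0 in replicate 2 (1.94%). They were Snord22 (3.89 on the log2 scale), Snora73b (2.87), Snora73a (2.53) and Snora74a (1.18). In the second quantification 47 members could be compared, of which 7 were more than 2-fold apart (9.69% of all genes), with 7 higher in replicate 1 (3.33% of all genes) and 0 in replicate 2 (6.36%). These were Snord22 (3.37), Snord118 (2.61), Snora73b (2.18), Snora68 (1.62), Snora73a (1.48), Snora57 (1.36) and Snord89 (1.29). With 1 library on each side this is a difference between 2 libraries of the same group, with no test, and the RNA input differed between them as well; its part in the result was not tested.

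The high scaRNAs moved less. The scaled ratio of replicate 1 to replicate 2 in the second quantification was 1.30 for Scarna10 (95% exact counting interval 1.24 to 1.36), 1.07 for Scarna2 (1.02 to 1.13) and 1.75 for Scarna6 (1.49 to 2.05). Scarna13 went the other way, at 0.798 (0.720 to 0.884). Snord22 stood at 10.7 (6.98 to 17.1) while its host Snhg1 differed by 0.18 on the log2 scale in the gene tables. These intervals cover counting error only, and do not hold the spread between cultures. Of the 47 members, 12 had an interval wholly above 1 and 1, Scarna13, wholly below.

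**Figure D5:**
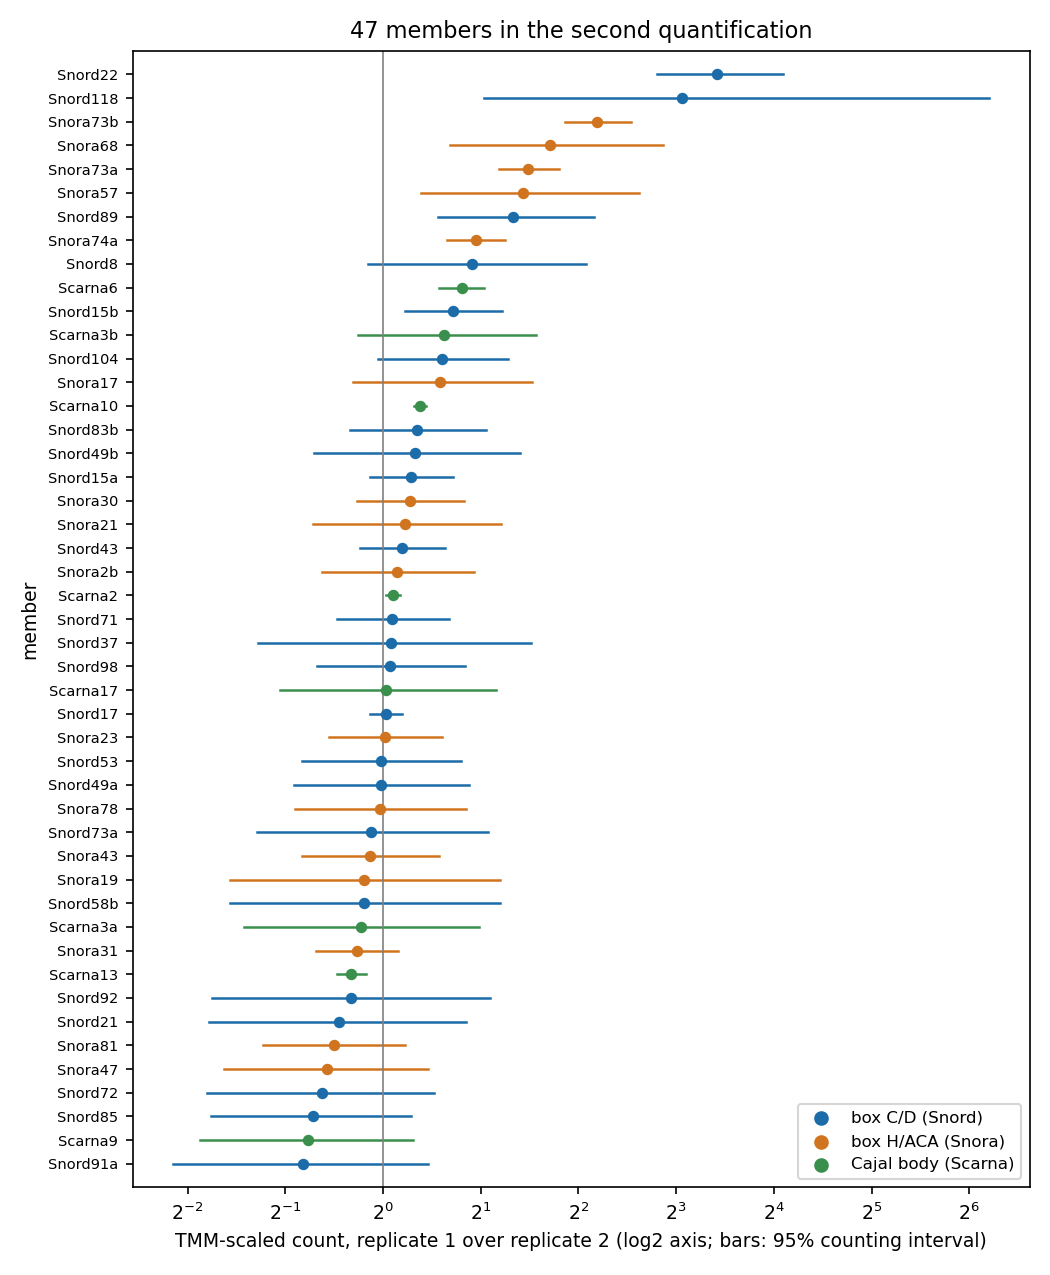
Ratio of TMM-scaled counts in replicate 1 to replicate 2 (log2 axis) in the second quantification for the 47 members with a mean of at least 10 scaled counts; points are ratios, bars are 95% exact counting intervals, and colours are classes. Snord22 stands at 10.7 at the top, and most members lie near 1.

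The 2 copies of U17 share most of their sequence, so their split is uncertain and their sum is the safer value. They are printed here because this pair makes up most of the difference in summed H/ACA counts between libraries; capitals mark the 7 bases at which they differ, which are G3A, G54A, A111G, T164C, G203A, T204A and T205A, with the base of Snora73a first, its position counted from 1 at the annotated 5′ end, and the base of Snora73b last. The genes lie at chr4:132352775-132352979, minus strand, and chr4:132352322-132352526, minus strand. The same is done for Snord14c (chr9:40803583-40803668, plus strand) and Snord14d (chr9:40803995-40804080, plus strand), copies of U14 inside exons of Hspa8 transcripts, which differ by G47A and A49G.
Snora73a: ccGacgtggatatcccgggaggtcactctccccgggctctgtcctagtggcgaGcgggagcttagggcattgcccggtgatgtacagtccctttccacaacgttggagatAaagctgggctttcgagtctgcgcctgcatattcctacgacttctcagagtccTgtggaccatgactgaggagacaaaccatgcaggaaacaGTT
Snora73b: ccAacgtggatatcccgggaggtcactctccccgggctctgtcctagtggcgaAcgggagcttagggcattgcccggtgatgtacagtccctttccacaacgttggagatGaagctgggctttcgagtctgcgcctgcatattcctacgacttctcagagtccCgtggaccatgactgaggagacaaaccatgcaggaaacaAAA
Snord14c: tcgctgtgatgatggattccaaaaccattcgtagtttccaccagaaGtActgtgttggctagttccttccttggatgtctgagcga
Snord14d: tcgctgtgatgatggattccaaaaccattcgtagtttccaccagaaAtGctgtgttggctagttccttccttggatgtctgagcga

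Snora73a and Snora73b, identical at 96.6% of 205 bases, summed to 834 and 74.99 expected counts, a scaled ratio of 6.64 (5.24 to 8.52), and to 905 and 204 estimated counts, a ratio of 3.53 (3.03 to 4.14). With the 4 genes of other names that share their sequence (Gm22053, Gm25162, Gm25483 and Gm26448) the ratio was 5.54 and 3.24. The host Snhg3 went the other way, with 8.84 and 16.8 TPM in the gene tables. Snord14c and Snord14d, identical at 97.7% of 86 bases, had 17.04 and 12.04 estimated counts in replicate 1 and 0 in replicate 2. Snord14a and Snord14e were at 0 in both libraries. Hspa8, whose transcripts hold all 31-base words of Snord14c and Snord14d, stood at 219 and 119 TPM in the gene tables, 0.78 higher in replicate 1 on the log2 scale of scaled counts.

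RNA of the genes for the proteins of these particles was found in both libraries, while the proteins were not measured. All 37 listed protein genes reached 1 TPM in both libraries of the gene tables, where 46.0% of protein-coding genes did, and 35 did so in the second quantification, Nop10 and Coil falling short. Of the box C/D core, the methylase gene Fbl stood at 12.3 ± 2.52 TPM in the gene tables, Nop56 at 28.0 ± 1.39, Nop58 at 9.29 ± 1.87 and Snu13 at 10.8 ± 1.03 (SD, n = 2). Of the H/ACA core, Dkc1, the pseudouridine synthase, stood at 10.3 ± 1.22 TPM, Gar1 at 7.44 ± 2.67, Nhp2 at 4.25 ± 0.325 and Nop10 at 1.62 ± 0.643. Nop10 was the lowest core gene in both libraries. Of the Cajal body genes, Coil, the scaffold, stood at 2.14 and 1.00 TPM and Wrap53, which brings scaRNAs to the body, at 2.49 and 1.57 TPM.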

How the data were processed

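The 2 libraries form 1 group, so no test was made; values are given per library or as mean ± SD (n = 2). The authors deposited per gene expected counts, TPM and the bounds of TPM intervals (treated as a signal), made from alignments to mm10 with GENCODE M21, and per transcript estimated counts and TPM of a second quantification, as file headers and accompanying text state. The programs and the strand setting are not given in the sources used here; genes overlapping on opposite strands are therefore uncertain. Transcripts of the second quantification were summed per gene. Entries naming no gene (1.18% and 0.405% of counts) were left out. Estimated counts in the second tables totalled 26079323 and 20703247.

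Counts were rounded and scaled by TMM (edgeR 4.0.16, R 4.3.3); differences were taken after adding 1, for members whose scaled mean reached 10. The script recovered 200 of 200 genes changed 4-fold when tested on simulated data for the library comparison. The simulated counts held counting error only, and the changed genes had more counts than most members. The test thus checks the calculation alone. Ratios carry 95% exact (Clopper-Pearson) counting intervals, and a count of 0 allows up to 3 counts (0.157 and 0.258 CPM in the gene tables); both hold counting error alone, as the reads carry no molecular identifiers. Hosts, places and sequences came from GENCODE M21. The background for motifs was other transcripts within the range of the members' lengths, in place of upstream windows. Words of 31 bases were compared over all transcripts.

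Members, lists and rules were chosen with earlier results of these data known. Named members were the highest of each class by TPM or counts, those farthest apart between libraries or quantifications, members of known role, those nearest the threshold, and all members of the 3 hosts with the most; sequences were shown for the highest members and for pairs that share sequence, and those of Snord104, Snord118, Snora31 and Scarna13, with the values of other members named outside these rules (such as Snord89, Snora57 and Snora44), were added after their values were seen. The listed members Snord3a, Snord115, Snord116 and Snora53 are not analysed here. Alternatives were other thresholds, pseudocounts and scalings (DESeq2 1.42.0), posterior mean TPM, the second quantification and each library alone. Python 3.11.15 with pandas 2.3.3, numpy 2.4.6 and scipy 1.17.1 was used.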

Additional observations from a re-analysis of the deposited data

How the results depend on the processing

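No paired analysis was possible because the series has 1 group. Detection of members rose from 13 to 45 with posterior mean TPM (34 instead of 6 Snora, 7 instead of 4 Scarna), which also gives members with 0 counts a value above 0; to 73 by the second quantification (41 Snord, 24 Snora, 8 Scarna); and to 45 with at least 10 estimated counts there, an alternative added after seeing the data. With 1 library alone it ranged from 15 to 23 (Snora 8 to 15). At 5 TPM, 19 of the 37 protein genes were detected. The share of TPM, 0.799 ± 0.437% in the gene tables, was 0.337% by the second quantification and 0.163% with annotated in place of effective length. Of 46 named levels, 9 stayed within the SD between libraries in the second quantification and 17 with posterior mean TPM. The other 37 and 29 include levels with an SD of 0, some of which stayed at 0, such as Snord14a and Snord64. CPM and the SD of TPM have different units, so no count is given for CPM. Members more than 2-fold apart between libraries numbered 4, but 11 with a mean of at least 1 and 7 in the second quantification; other scalings and pseudocounts gave 4. Members at 0 in the gene tables and detected by the second quantification numbered 33 at 5 TPM instead of 51 at 1 TPM. Members apart between quantifications numbered 48 at a mean of 10 TPM and 14 in CPM instead of 84. The median log2(TPM + 1) was 0 for Snord and Snora and 2.23 for Scarna; over detected members it was 9.84, 7.21 and 9.17, and by the second quantification 1.79 (Snord) and 2.72 (Snora). Of the members in host exons, 4 of the 36 with no word at another locus were detected, against 52 of 61 outside them, and 11 to 15 of 56 with 1 library alone; with at least 10 estimated counts 39 instead of 66 of the 77 outside host exons were detected, and 6 of 56 within; these splits were added after seeing the data. The cause of these changes was not tested. Counts under 10 limit most Snord values.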

Other observations

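Several members known for a part in cutting the ribosomal RNA precursor were among those farthest apart between the libraries: Snord22 (U22), Snord118 (U8), and Snora73a and Snora73b (U17). They were grouped after their values were seen, so a sum over them restates that choice and is not given. Without these 4 and the 4 Snord14 genes (U14), of which Snord14a and Snord14e were at 0 in both libraries, the other 125 members summed to 12970 and 8788 estimated counts in replicates 1 and 2, a scaled ratio of 1.18, and all 133 members to a ratio of 1.26. In the gene tables the ratios were 1.30 and 1.41. Leaving out members picked for being far apart lowers a ratio by that choice alone. The comparison therefore says nothing about their role. Snord13 (U13) had 5 and 2 estimated counts.

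Where a host holds several members in introns, their levels differed in some hosts and not in others; the hosts named here were chosen after their values were seen. Snord43 and Snord83b in introns of Rpl3 stood at 118 ± 34.7 and 52.5 ± 9.44 TPM in the second quantification. Snord49a, Snord49b and Snord65 in introns of 2410006H16Rik stood at 33.2 ± 8.63, 24.6 ± 2.31 and 3.54 ± 2.36 TPM (SD, n = 2). Snora73a and Snora73b, counted as intronic in Snhg3, stood at 99.7 ± 61.0 and 106 ± 91.2 TPM, closer than their spread.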
